A study of Mus musculus with 35 samples.

Results

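The osteopontin gene Spp1 and 7 further genes that mark lipid-associated macrophages, Gpnmb, Trem2, Lgals3, Cd9, Cd63, Lgals1 and Dcstamp, were followed through every cell of the series. They were found by their symbols and are 8 of 32285 gene rows in the tables of the lactate experiment and of the technique comparison, and 8 of 35624 in the table of the AZD3965 experiment. The genes were selected on these data, because the summed Spp1 count was lower in lactate-treated than in control cells of the lactate experiment. That contrast is therefore given below as a description, and the remaining cells were not used to pick the genes.

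Every library is 1 cell labelled as a peritoneal macrophage of a male C57BL/6 mouse aged 6 months. The lactate experiment set 8 cells kept with 10 mM lactate for 72 h against 8 control cells without it. In the AZD3965 experiment, 5 cells had received 10 mM lactate with 300 nM AZD3965, an inhibitor of the lactate transporter MCT1, and 5 cells had received 10 mM lactate alone. In the technique comparison, 4 cells treated with lactate were taken by scMeT-seq, where a fine capillary draws off cytoplasm for mass spectrometry before the rest of the cell is lysed for RNA sequencing, whereas 3 cells treated with lactate and 2 without it went into SMART-seq2 uncut, as whole cells. By the methods of the study, the cells of the lactate and AZD3965 experiments were sampled by scMeT-seq as well. The labels name neither the animal nor the culture of a cell, so each group counts as 1 sample. Cells are given 1 by 1, no test between groups of cells was made, and a difference between groups cannot be told apart from a difference between cultures or animals.

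Osteopontin is a secreted phosphoprotein that binds integrins and CD44, and macrophages that take up lipid or cell debris are known to make much of it. TREM2 is a surface receptor for lipids and lipoproteins that signals through the adaptor TYROBP, and the state of lipid-associated macrophages depends on it in mice. GPNMB is a glycoprotein of lysosomes and the cell surface, CD9 and CD63 are tetraspanins of membranes and endosomes, galectin-3 (Lgals3) and galectin-1 (Lgals1) bind sugars with galactose, and DC-STAMP (Dcstamp) is needed for the fusion of macrophages and osteoclast precursors.

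The promoters of Spp1 and Gpnmb are shown because these 2 had the lowest lactate over control ratios among the 6 members with a RefSeq window. The bases are the 250 before the RefSeq start site in GRCm38.p6, plus strand, at chr5:104434861-104435110 for Spp1 and chr6:49036268-49036517 for Gpnmb. Capitals mark the letters of a RUNX motif (AACCACA) and of a PU.1/ETS motif (GAGGAA).
Spp1: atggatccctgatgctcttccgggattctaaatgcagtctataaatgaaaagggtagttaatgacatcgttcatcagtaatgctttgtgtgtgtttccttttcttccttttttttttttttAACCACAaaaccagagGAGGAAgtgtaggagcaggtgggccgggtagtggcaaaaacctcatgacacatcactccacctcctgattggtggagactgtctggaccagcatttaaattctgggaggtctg
Gpnmb: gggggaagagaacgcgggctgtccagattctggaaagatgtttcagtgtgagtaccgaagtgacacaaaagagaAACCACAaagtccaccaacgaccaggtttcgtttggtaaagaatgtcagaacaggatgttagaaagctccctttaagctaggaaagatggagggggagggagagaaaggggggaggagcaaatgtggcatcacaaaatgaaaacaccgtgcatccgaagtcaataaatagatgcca
Both strands were searched for AACCACA and GAGGAA, and also for an AP-1 motif (TGACTCA) and the E-box of the MiT/TFE factors (CACGTG), which do not overlap one another in these windows. These letters were chosen after the Spp1 window had been read. AACCACA lay at -129 to -123 of Spp1 and at -176 to -170 of Gpnmb, in 2 of the 6 members with a window, and it occurred in 4.40% of all 32851 RefSeq windows of this length. GAGGAA was in the windows of Spp1, Trem2 and Cd63 and in 23.3% of all windows. TGACTCA and CACGTG were in none of the 6 windows, against 4.46% and 6.02% of all. A match is only a match of letters.

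In GENCODE M21 (GRCm38), Spp1 spans chr5:104435118-104441050 and Gpnmb chr6:49036546-49070929, both on the plus strand. Trem2 lies at chr17:48346401-48354147, Lgals3 at chr14:47367751-47386160, Cd63 at chr10:128900989-128912822, Lgals1 at chr15:78926725-78930465 and Dcstamp at chr15:39745930-39760938, all on the plus strand, and Cd9 lies at chr6:125460266-125494791 on the minus strand. All 8 are protein-coding, and values are counts over their exons. Exons of Spp1 share 309 bases with the predicted gene Gm42793 on the same strand, and exons of Cd9 share 218 bases with Gm26728 on the opposite strand. Whether the counting used strand is not given in the sources used here, so reads from the shared bases cannot be told apart. Gm26728 was at 0 counts in the 2 tables that list it, where Cd9 had 810 to 2673 counts per group, and Gm42793 is listed in none of the 3.

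The counts assigned to genes added up to between 269393 and 459859 per cell in the lactate experiment, 58444 and 175450 in the AZD3965 experiment and 494520 and 851417 in the technique comparison. Values are CPM, the counts of a gene per 1000000 counts of the cell or, for a group, of its summed cells. The libraries carry no molecular identifiers, so intervals cover counting error only. Of 18 macrophage markers, 15 to 18 had a count in every cell other than the control cell CTL32, which had 12 of them at a summed 1226 CPM and 48860 CPM over 16 fibroblast markers. CTL32 therefore goes against its label. Fibroblast or mesothelial markers also reached 10% of the macrophage marker level in the lactate cell Lactic29, the control cell CTL30 and the lactate+AZD cell W14. Ratios and correlations of the members that rest on these 4 cells are given with and without them. Most other values are given with all cells.

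In the lactate experiment, Spp1 was lower with lactate, and so were Gpnmb and Lgals1, whereas Trem2 and Cd9 lay close together in the 2 groups. Spp1 ranged over 11.5, 194 and 642 CPM (lowest, median, highest of 8 cells) with lactate, against 88.9, 1519 and 4307 CPM in control cells. The groups overlapped, but 5 of the 8 control cells (CTL30, CTL32, CTL33, CTL34 and CTL35) lay above every lactate cell and 3 lactate cells lay below every control cell. The summed levels were 246 CPM with lactate and 1605 CPM in control cells, a log2 ratio of -2.71 with a 95% counting interval from -2.82 to -2.60, and of -2.68 without the cells rich in fibroblast markers. Those cells are CTL30 and the highest cell of each group, Lactic29 and CTL32. Without them Spp1 was at 11.5, 107 and 391 CPM with lactate, against 88.9, 998 and 3234 CPM in control cells. Of the control cells left, 4 of 6 lay above every lactate cell, and 3 of 7 lactate cells lay below every control cell. As the genes were chosen by this contrast, the difference carries no weight of its own.

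Gpnmb was at 86.8, 758 and 7342 CPM (lowest, median, highest) with lactate, against 63.7, 2258 and 13260 CPM in control cells. The log2 ratio was -1.66 (-1.71 to -1.62), and -1.92 without the cells at the marker limit. A single lactate cell, Lactic33, held 56.5% of the lactate counts, and without it the log2 ratio was -2.64. The lowest control cell was CTL32, the cell with few macrophage markers, and the lowest of the others was at 834 CPM.

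Lgals1, for galectin-1, was at 6.52, 143 and 338 CPM with lactate, against 208, 487 and 1082 CPM in control cells. Its highest lactate cell was Lactic29 and its 2 highest control cells were CTL30 and CTL32, the 3 cells of this experiment that reached the marker limit. The log2 ratio was -2.02 (-2.17 to -1.87) with these cells and -1.85 without them. In this experiment 12 of the 14 fibroblast markers tested were at least 2-fold lower with lactate, beside 22.0% of all genes. The part of these markers in the Lgals1 and Spp1 values was not tested beyond leaving those cells out. Dcstamp ran the other way. It was at 0, 149, 4.90, 0, 0, 10.9, 27.9 and 22.9 CPM in the lactate cells Lactic27 to Lactic34, against 18.3 CPM in the control cell CTL33 and 0 in the other 7 control cells. These are 88 and 8 counts, a log2 ratio of 3.41 that was 3.16 without the cells at the marker limit, and Lactic28 alone held 69.3% of the 88. Without Lactic28 the log2 ratio was 1.92, and without CTL33 the control cells held no count.

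The other 4 members were less than 2-fold apart in this contrast. Trem2 was at 211, 524 and 910 CPM with lactate, against 2.77, 501 and 943 CPM in control cells, a log2 ratio of 0.12. Lgals3 was at 1073, 2897 and 4922 CPM with lactate, against 133, 2101 and 5108 CPM in control cells, a log2 ratio of 0.36. Cd9 was at 316, 721 and 788 CPM with lactate, against 213, 621 and 1070 CPM in control cells, a log2 ratio of 0.04. Cd63 was at 225, 534 and 977 CPM with lactate, against 403, 1006 and 1304 CPM in control cells, a log2 ratio of -0.71. The lowest Trem2, Lgals3 and Cd9 values of the control group all belong to CTL32. Without the 3 cells at the marker limit, the log2 ratios of Trem2, Lgals3, Cd9 and Cd63 were -0.03, 0.18, -0.13 and -0.58, so that the signs for Trem2 and Cd9 turned.

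Over the 8 members, 1 was at least 2-fold higher with lactate and 3 were at least 2-fold lower, where 15.1% and 22.0% of all 11506 genes with at least 10 counts passed the same bounds. Since this contrast chose the genes, nothing is read from these counts. The median log2 ratio was -0.34 over the members and -0.09 over all genes.

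**Figure D1:**
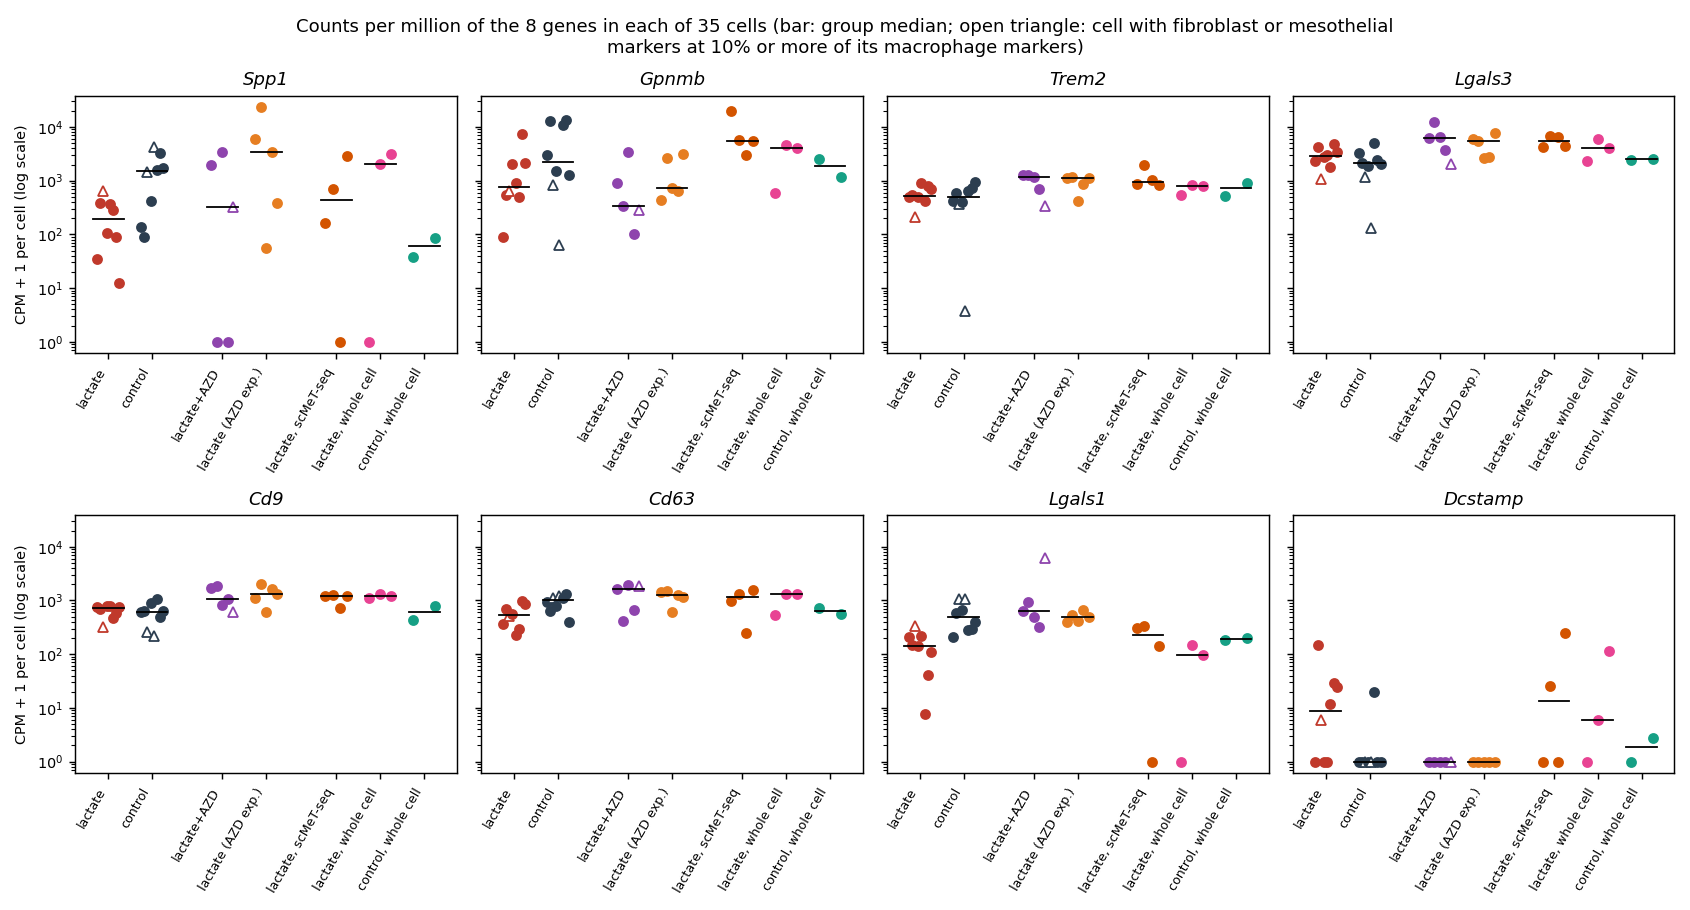
CPM plus 1 (log scale) of each of the 8 genes in each of 35 cells, in the order lactate and control cells, cells with and without AZD3965 beside lactate, and scMeT-seq lactate, whole lactate and whole control cells. Bars are group medians and open triangles are the 4 cells rich in fibroblast or mesothelial markers. Spp1 ranged from 0 to 23272 CPM, while Cd9 stayed between 213 and 1995 CPM.

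The whole cells of the technique comparison offer a second contrast of lactate with control, in cells that did not serve to choose the genes. Here Spp1 was higher with lactate, not lower. It was at 0, 2065 and 3104 CPM in the whole lactate cells Lactic5, Lactic6 and Lactic7, against 37.6 and 83.8 CPM in the whole control cells CTL4 and CTL8. Of the 3 lactate cells, 2 lay above both control cells and 1 lay below them. The summed levels were 1858 and 55.9 CPM, a log2 ratio of 5.05 (4.73 to 5.39), and leaving out each cell in turn gave 4.35 (without Lactic7) to 5.63. The sign was thus opposite to that in the lactate experiment. The 2 contrasts differ in how the cell was sampled as well as in their cells, and the difference between them was not tested.

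Dcstamp was likewise seen mainly in a lactate cell. It was at 0, 4.90 and 112 CPM in Lactic5, Lactic6 and Lactic7, against 0 and 1.78 CPM in CTL4 and CTL8. The 74 counts with lactate against 1 count in control cells give a log2 ratio of 5.91 with an interval from 3.38 to 11.2, and Lactic7 held 95.9% of the 74. Without Lactic7 it was 1.94.

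Cd9 was above both control cells in all 3 whole lactate cells. It was at 1128, 1337 and 1222 CPM with lactate, against 438 and 779 CPM in control cells, a log2 ratio of 1.11 (0.99 to 1.23) that was 0.67 without CTL4. Lgals1 was below both control cells in all 3, at 0, 149 and 96.0 CPM with lactate, against 182 and 196 CPM in control cells, a log2 ratio of -1.11 (-1.40 to -0.81). Without Lactic5, the cell at 0, it was -0.62, and without Lactic6 it was -1.80. The sign for Lgals1 was that of the lactate experiment.

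The other 4 members were less than 2-fold apart. Gpnmb was at 588, 4699 and 4016 CPM in the whole lactate cells, against 2498 and 1177 CPM in the whole control cells, a log2 ratio of 0.73, and of 1.48 without CTL4. Lgals3 was at 2364, 5968 and 4114 CPM with lactate, against 2438 and 2539 CPM in control cells, a log2 ratio of 0.78, and of 1.02 without Lactic5. Cd63 was at 534, 1309 and 1317 CPM with lactate, against 729 and 555 CPM in control cells, a log2 ratio of 0.73. In each of these 3 genes Lactic6 and Lactic7 lay above both control cells and Lactic5 lay below both. Trem2 was at 540, 813 and 779 CPM with lactate, against 518 and 918 CPM in control cells, a log2 ratio of 0.09 with an interval that includes 0.

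In this comparison, 3 of the 8 members (Spp1, Cd9 and Dcstamp) were at least 2-fold higher with lactate and 1 (Lgals1) at least 2-fold lower, where 15.2% and 27.6% of 9732 genes were. With so few cells, no overlap between groups is common. Every lactate cell lay above every control cell in 5.99% of genes and below every control cell in 15.4%, beside 1 and 1 of the 8 members. The median log2 ratio was 0.76 over the members and -0.20 over all genes. Markers of large peritoneal macrophages, the resident type, also differed from cell to cell, with overlap between the groups. Their summed level was 2453 CPM in Lactic5, 811 CPM in Lactic6 and 1241 CPM in Lactic7, against 7449 CPM in CTL4 and 2229 CPM in CTL8, and 4 of the 11 tested were at least 2-fold lower and 1 at least 2-fold higher with lactate, beside 27.6% and 15.2% of all genes. Their part in the Spp1 result was not tested. Fibroblast markers stayed at or below 249 CPM in these 5 cells.

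**Figure D2:**
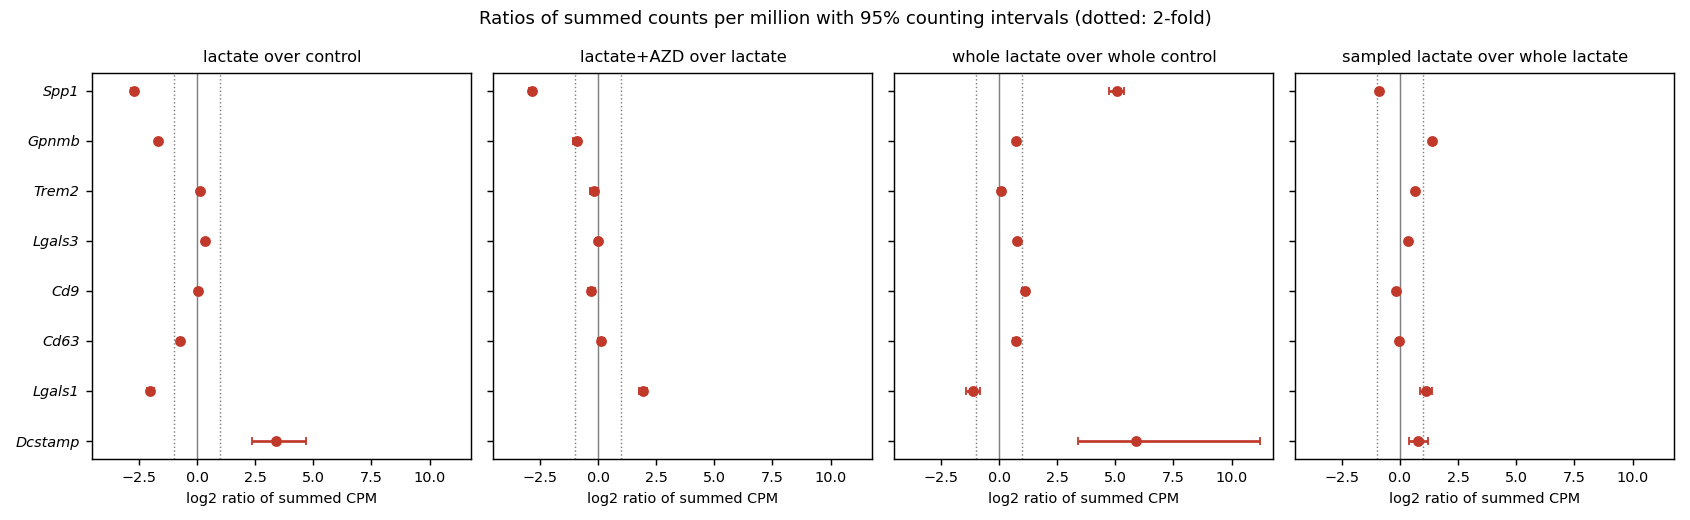
Log2 ratio of summed CPM for each of the 8 genes in 4 comparisons, with 95% counting intervals as bars and 2-fold as dotted lines. Spp1 was at -2.71 in lactate over control cells and at 5.05 in whole lactate over whole control cells, and Dcstamp had no count in either group of the AZD3965 experiment.

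In the AZD3965 experiment, Spp1 was the member with the lowest ratio and the one with the widest range of CPM over the cells of both groups together. It was at 1955, 0, 3419, 0 and 325 CPM in the lactate+AZD cells T10, F8, F9, W10 and W14, against 5925, 23272, 55.2, 3470 and 382 CPM in the lactate cells T11, T13, F18, W5 and W20. The groups overlapped, with 3 lactate cells above every lactate+AZD cell and 2 lactate+AZD cells at 0. The summed levels were 1086 CPM with AZD3965 and 7709 CPM without it, a log2 ratio of -2.83 (-2.95 to -2.71), and of -2.54 without W14. T13 held 73.5% of the Spp1 counts of the lactate group, and without it the log2 ratio was -1.32. Without F9 it was -3.55. The cell names begin with T, W or F, and the labels do not say what the letters stand for. Among W cells the log2 ratio was -3.49, and among F cells, with 2 lactate+AZD cells and 1 lactate cell, it was 5.23, so that the sign did not hold within every letter.

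Lgals1 showed the highest ratio of the members, and it rested on 1 cell. It was at 637, 941, 487, 314 and 6202 CPM in the lactate+AZD cells T10, F8, F9, W10 and W14, against 390, 541, 420, 652 and 500 CPM in the lactate cells T11, T13, F18, W5 and W20. The log2 ratio was 1.93 (1.75 to 2.10), and 0.09 without W14, which held 78.8% of the lactate+AZD counts. W14 had 19284 CPM of fibroblast markers and 2001 CPM of mesothelial markers beside 27374 CPM of macrophage markers. Over the groups, 9 of 13 fibroblast markers were at least 2-fold higher and 2 at least 2-fold lower with AZD3965. Of all genes 24.9% and 15.6% were.

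Gpnmb was at 921, 342, 3496, 100 and 283 CPM in the lactate+AZD cells, in the same order, against 440, 2702, 740, 652 and 3183 CPM in the lactate cells. Its log2 ratio was -0.91 (-1.06 to -0.76), without F9 it was -2.01, and without W14 it was -0.62. Trem2, Lgals3, Cd9 and Cd63 had log2 ratios of -0.17, -0.00, -0.29 and 0.13, and the cells of both groups overlapped in each. Without W14 these were 0.09, 0.26, -0.08 and -0.05, so that the signs for Trem2, Lgals3 and Cd63 turned. Trem2 ran between 339 and 1282 CPM with AZD3965 and between 409 and 1157 CPM without it, and Lgals3 between 2065 and 12285 CPM and between 2596 and 7772 CPM. Cd9 ran between 608 and 1865 CPM with AZD3965 and between 619 and 1995 CPM without it, and Cd63 between 411 and 1958 CPM and between 597 and 1528 CPM. Dcstamp was listed at 0 in all 10 cells, which allows up to 5.16 CPM in the lactate+AZD group and 4.16 CPM in the lactate group by 3 counts over the group. In this table a count of 2 was more frequent than a count of 1 (6215 against 1914 values), which was not so in the other 2 tables.

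Of the 7 members with at least 10 counts, 1 was at least 2-fold higher with AZD3965 and 1 at least 2-fold lower, where 24.9% and 15.6% of 8764 genes were. The median log2 ratio was -0.17 over these members and 0.17 over all genes. Without W14, no member was at least 2-fold higher.

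The 4 scMeT-seq cells and the 3 whole cells had all received lactate, so this comparison bears on the sampling of cytoplasm. Spp1 was at 158, 699, 0 and 2845 CPM in the scMeT-seq cells Lactic13, Lactic14, Lactic16 and Lactic17, against 0, 2065 and 3104 CPM in the whole lactate cells. Both groups thus held a cell without a single Spp1 count and a cell at 2845 CPM or more. The log2 ratio was -0.92, and leaving out each cell in turn gave -2.82 (without Lactic17) to -0.22 (without Lactic7). Gpnmb was at 19573, 5677, 3045 and 5387 CPM in the scMeT-seq cells, against 588, 4699 and 4016 CPM in the whole cells, a log2 ratio of 1.38 that was 0.51 without Lactic13.

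Trem2 was at 876, 1963, 1037 and 833 CPM in the scMeT-seq cells, above 540, 813 and 779 CPM in the whole cells in every case. Its log2 ratio was 0.65, and 1.70% of the 9723 genes tested had every scMeT-seq cell above every whole cell. Lgals1 was at 306, 335, 0 and 139 CPM in the scMeT-seq cells, against 0, 149 and 96.0 CPM in the whole cells, a log2 ratio of 1.12 that was 0.64 without Lactic5 and 1.81 without Lactic6. Dcstamp was at 0, 25.0, 0 and 245 CPM, against 0, 4.90 and 112 CPM, a log2 ratio of 0.79 that was -2.52 without Lactic17 and 4.76 without Lactic7. Lgals3, Cd9 and Cd63 had log2 ratios of 0.34, -0.17 and -0.06. Of the 8 members, 2 were at least 2-fold higher in scMeT-seq cells and 0 at least 2-fold lower, where 21.7% and 20.6% of genes were.

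Across all 35 cells, Gpnmb, Trem2, Lgals3, Cd9 and Cd63 had a count in every cell, Lgals1 in 33, Spp1 in 31 and Dcstamp in 11. The cells without Spp1 were F8, W10, Lactic16 and Lactic5, all treated with lactate or with lactate and AZD3965. Lactic16 and Lactic5 were also the only cells without Lgals1, and both were without Dcstamp. The labels do not say whether the libraries of the 3 tables were made together, so levels across them are given side by side only.

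Levels between genes were set per kilobase of exon, with all annotated exons of a gene joined as its length. The lengths ran from 903 bases for Lgals1 to 6514 bases for Gpnmb, with 4946 bases for Trem2. Transcripts in use can be shorter, which was not measured, so the places of the genes depend on these lengths. By this measure, Lgals3 led in 6 of the 7 groups and Spp1 in the lactate cells of the AZD3965 experiment. There T13 held 73.5% of the Spp1 counts, and Spp1 lay above Lgals3 per kilobase in T11, T13 and W5 and below it in F18 and W20. In the lactate experiment, the order with lactate was Lgals3 at 1585, Cd9 at 306, Gpnmb at 282, Lgals1 at 161, Cd63 at 155, Spp1 at 149, Trem2 at 113 and Dcstamp at 10.9 CPM per kilobase. In control cells it was Lgals3 at 1237, Spp1 at 974, Gpnmb at 892, Lgals1 at 650, Cd9 at 297, Cd63 at 254, Trem2 at 104 and Dcstamp at 1.02 CPM per kilobase. Cell values of neighbours in these orders overlapped, other than for Lgals3 and Cd9 with lactate. Spp1 was thus in place 6 with lactate and in place 2 in control cells, and in the whole cells it was in place 2 with lactate, at 1127, and in place 7 in control cells, at 33.9 CPM per kilobase. By its median over cells, Spp1 ran down through 3470 CPM in the lactate cells of the AZD3965 experiment, 2065 CPM in whole lactate cells, 1519 CPM in control cells, 428 CPM in scMeT-seq lactate cells of the technique comparison, 325 CPM in lactate+AZD cells, 194 CPM in lactate cells and 60.7 CPM in whole control cells, and the cells of each pair of neighbours in this order overlapped.

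**Figure D3:**
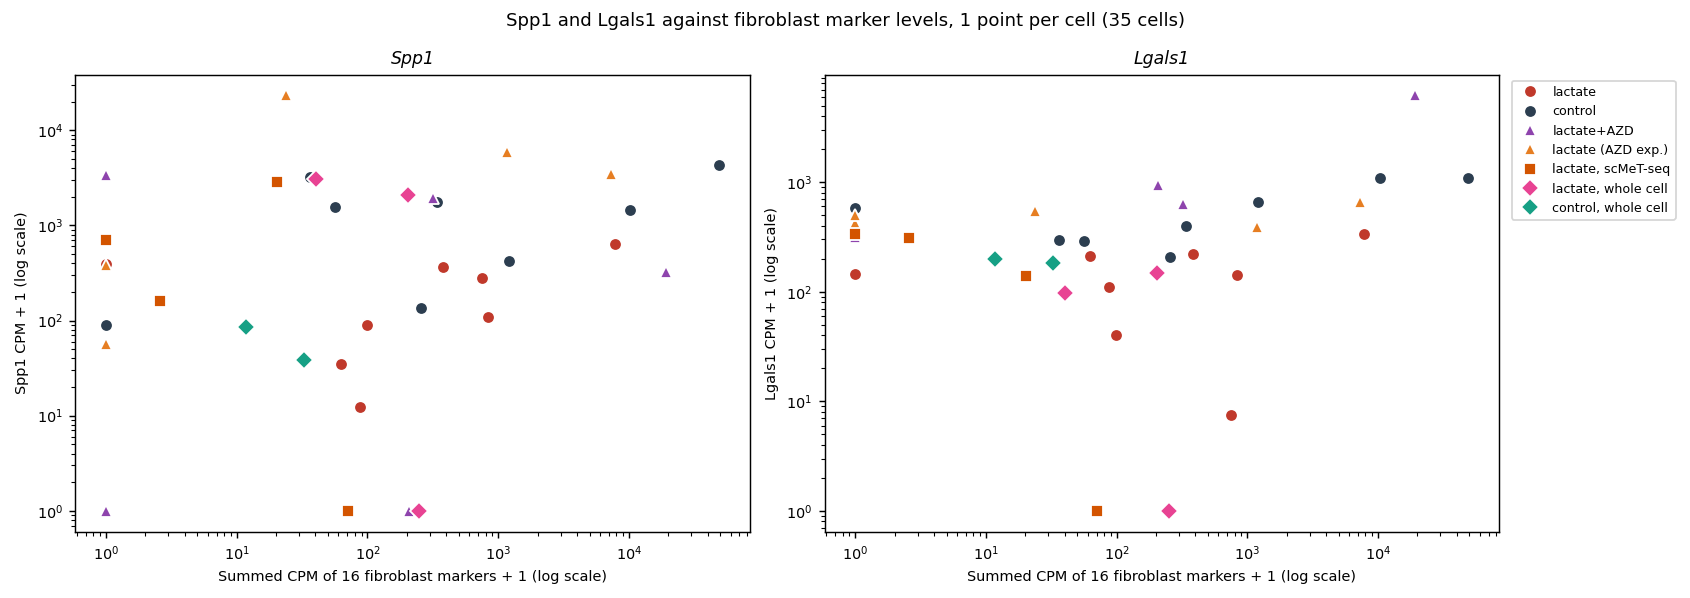
Spp1 (left) and Lgals1 (right) CPM plus 1 against the summed CPM plus 1 of 16 fibroblast markers, 1 point per cell, log scales, with the 7 groups as colours and shapes. The highest Lgals1 value, 6202 CPM, belongs to W14 at 19284 CPM of fibroblast markers, whereas the highest Spp1 value, 23272 CPM, belongs to T13 at 22.8 CPM of fibroblast markers.

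The 4 highest Lgals1 cells, W14, CTL30, CTL32 and F8, included 3 of the 4 cells at the marker limit. The 4 highest Spp1 cells were T13, T11, CTL32 and W5, of which CTL32 alone was at the limit, and W5 had 7299 CPM of fibroblast markers.

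In the lactate and AZD3965 experiments the members did not move as a block from cell to cell. Likeness was measured as Spearman's rho of per-cell CPM within a table, as a description over cells that share a library chemistry and differ in depth. The groups of a table were pooled, so rho also holds the differences between groups. In the lactate experiment these include the contrast that chose the genes. Pairs of both signs were seen in the lactate and AZD3965 experiments, whereas rho ran from 0.00 to 0.90 in the technique comparison. Trem2 and Lgals3 were positively related in each table, at 0.65 over 16 cells of the lactate experiment, 0.81 over 10 cells of the AZD3965 experiment and 0.75 over 9 cells of the technique comparison. Without the cells at the marker limit the first 2 of these were 0.34 and 0.73. Gpnmb was at 0.52, 0.44 and 0.43 with Trem2 and at 0.54, 0.42 and 0.68 with Lgals3. Without those cells, the first 2 were 0.26 and 0.27 with Trem2 and 0.34 and 0.25 with Lgals3. Spp1 and Cd63 were at 0.39, 0.58 and 0.90 in the same order of tables, and at 0.19 and 0.72 in the first 2 without those cells. Spp1 and Lgals1 were at 0.64, -0.02 and 0.23, and Spp1 and Trem2 at -0.19, 0.27 and 0.00. Without the cells at the marker limit, the first 2 were 0.53 and 0.07 for Spp1 and Lgals1. For Spp1 and Trem2 they were 0.16 and 0.18, so that the sign in the lactate experiment turned. Spp1 and Dcstamp were at -0.25 in the lactate experiment, and at -0.19 without those cells. In the technique comparison they were at 0.88, where Dcstamp had a count in 5 cells.

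**Figure D4:**
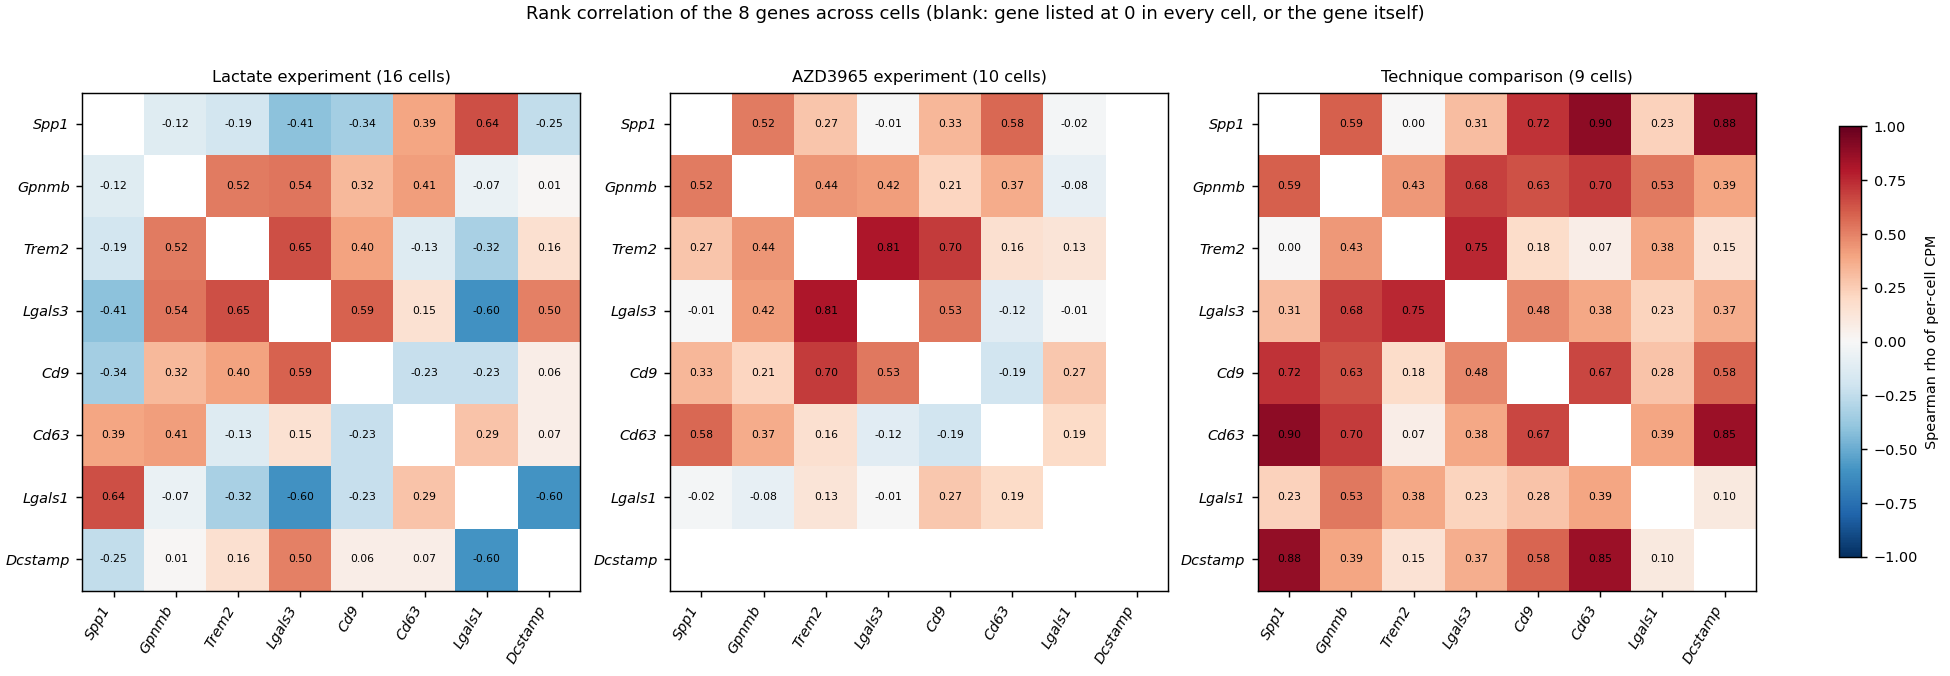
Spearman's rho of per-cell CPM for the 28 pairs of the 8 genes in the lactate experiment (16 cells), the AZD3965 experiment (10 cells) and the technique comparison (9 cells), with groups pooled. Trem2 and Lgals3 were at 0.65, 0.81 and 0.75 in the 3 tables, whereas Spp1 and Dcstamp were at -0.25 and 0.88 in the 2 tables where both were seen.

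Among 7622 genes with counts in at least 8 of the 16 cells of the lactate experiment, those most like Spp1 were Tpm1 (rho 0.80) and Palld (0.77), both of the actin cytoskeleton, Ckb (0.79), a creatine kinase, Nop58 (0.78), a protein of small nucleolar ribonucleoproteins, and Rpp38 (0.77), a subunit of ribonuclease P. Those least like it were Pirb (-0.77), an inhibitory receptor, the glycolytic enzyme gene Eno1 (-0.76) and Adap1 (-0.74). These neighbours, and those of the other members below, were picked as extremes among 7622 genes over 16 cells. What such extremes reach by chance was not computed. In the AZD3965 experiment and the technique comparison, Ckb was at 0.66 and 0.50, Tpm1 at 0.36 and 0.43 and Palld at 0.38 and 0.66. Nop58 was at -0.15 and 0.12 and Rpp38 at -0.17 and 0.28. Pirb was at -0.41 and -0.18, Eno1 at 0.43 and -0.36 and Adap1 at -0.57 and 0.43. The sign of the lactate experiment thus held in both only for Ckb, Tpm1, Palld and Pirb. Tpm1, which fibroblasts also express, was highest in CTL32 and CTL30. Without the cells at the marker limit in the lactate experiment, rho was 0.71 for Tpm1, 0.69 for Ckb and 0.79 for Nop58. It was 0.66 for Rpp38, 0.70 for Palld, -0.66 for Pirb, -0.68 for Eno1 and -0.67 for Adap1.

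For the other members, the genes most like each over the same 16 cells included Pgrmc1 for Cd63, at 0.83, and were Fabp5 and Rad17 for Gpnmb, at 0.81 and 0.83. Fabp5, a fatty acid-binding protein, was at 0.77 with Gpnmb in the AZD3965 experiment and at -0.10 in the technique comparison. For Trem2 they were Cfap53 (0.84) and the ferritin pseudogene Ftl1-ps1 (0.82), whose reads can be shared with its parent gene. For Lgals3 they were Bhlhe41 (0.84) and Mmp8 (0.78), for Cd9 Gngt2 (0.80) and Cyth4 (0.80), and for Lgals1 Tuba1a (0.85) and Palld (0.79). In the AZD3965 experiment and the technique comparison, Bhlhe41 was at 0.73 and -0.15, Mmp8 at -0.41 and 0.75 and Gngt2 at 0.64 and -0.08. There Cyth4 was at 0.13 and 0.10, Tuba1a at 0.35 and -0.08 and Palld at 0.54 and 0.64. Rad17 was at -0.03 and -0.07, Pgrmc1 at -0.24 and 0 and Ftl1-ps1 at 0.58 and 0.58. Cfap53 was at 0.57 in the technique comparison. In the lactate experiment without the cells at the marker limit, the values of these neighbours lay between 0.65 (Cyth4) and 0.83 (Rad17). Dcstamp had counts in too few cells to be ranked.

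Of 21 other lipid-associated macrophage genes, 20 could be tested in the lactate experiment. Of these 0 were at least 2-fold higher and 1 at least 2-fold lower with lactate, beside 15.1% and 22.0% of all genes. In the whole cells 8 of 20 were at least 2-fold higher and 1 at least 2-fold lower with lactate, beside 15.2% and 27.6% of all genes, and the median log2 ratio was 0.46, against -0.20 over all genes. The highest were Atp6v0d2, a subunit of the vacuolar proton pump, at 0, 344 and 190 CPM in Lactic5, Lactic6 and Lactic7, against 1.17 and 0 CPM in CTL4 and CTL8, and Mmp12, macrophage elastase, at 0, 7631 and 8460 CPM, against 36.4 and 1252 CPM. Lactic5, the whole cell without Spp1, had no count of either, and CTL8 had none of Atp6v0d2. The log2 ratios were 8.07 (5.58 to 13.4) for Atp6v0d2, which had a single count in control cells, and 3.47 for Mmp12. Itgax, encoding CD11c, had a log2 ratio of 2.30. Apoe, a lipoprotein ligand of TREM2, was lower in every whole lactate cell, at 807, 614 and 1658 CPM with lactate, against 10338 and 3798 CPM in control cells. With AZD3965, 0 of 19 were at least 2-fold higher and 0 at least 2-fold lower, beside 24.9% and 15.6% of all genes. In scMeT-seq over whole lactate cells 1 of 20 was higher and 1 lower, beside 21.7% and 20.6%.

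**Figure D5:**
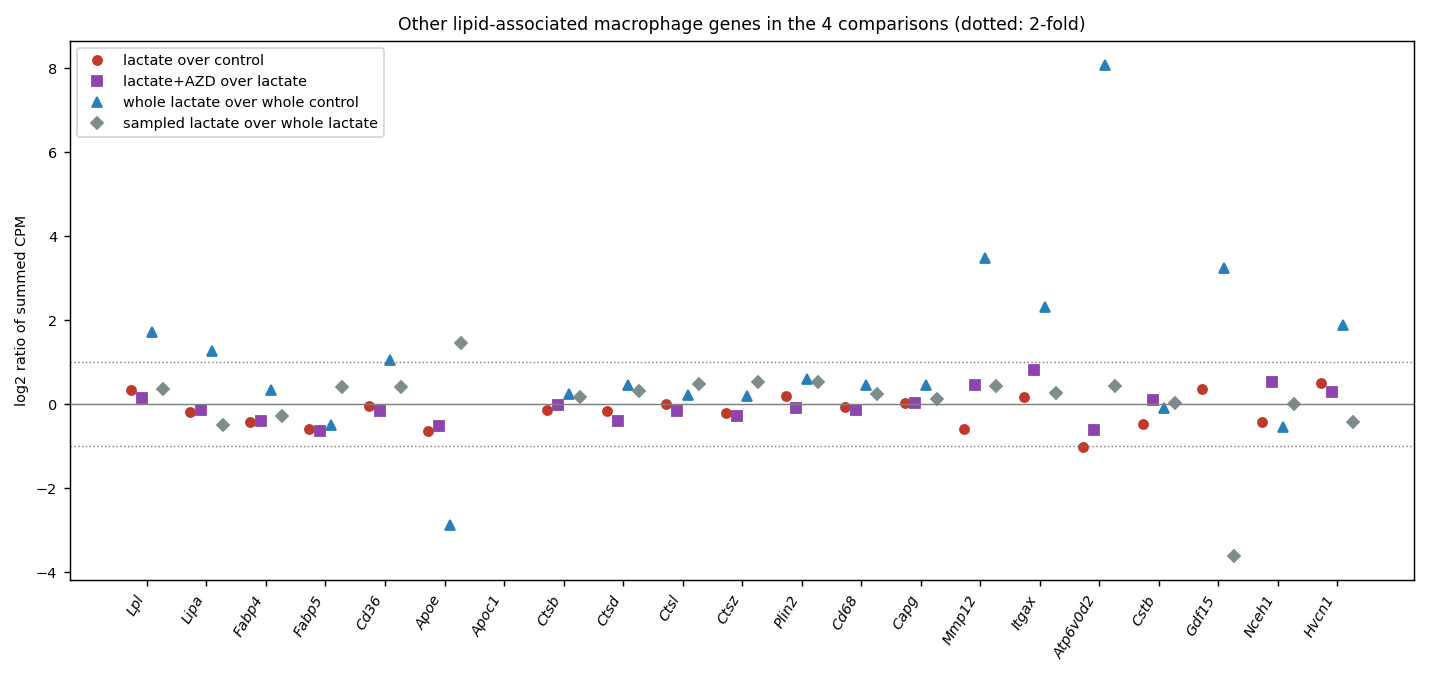
Log2 ratio of summed CPM for 21 other lipid-associated macrophage genes in the 4 comparisons, for genes with at least 10 counts over both groups, with 2-fold as dotted lines. In whole lactate over whole control cells Mmp12 was at 3.47 and Atp6v0d2 at 8.07, against -0.59 and -1.03 in lactate over control cells, and Apoe was at -2.88. A group sum of 0 is drawn as 3 counts.

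Among receptors and proteases of osteopontin, a few genes were at least 2-fold apart, on both sides. Of 8 receptor genes in the lactate experiment, 1 was at least 2-fold higher and 2 at least 2-fold lower with lactate. Of all genes 15.1% and 22.0% were. Of the 7 tested with AZD3965, 2 were higher and 2 lower, beside 24.9% and 15.6% of all genes. Cd44 and the integrin chain Itgb1, those with the most counts, had log2 ratios of -0.33 and -0.25 in the lactate experiment, of 0.02 and 0.69 with AZD3965 and of -0.17 and 0.37 in whole cells. Itga5, the chain of a fibronectin receptor, had a log2 ratio of -2.18 with AZD3965 and of -2.25 in whole lactate cells. Of 5 proteases tested that can cut osteopontin, 0 were at least 2-fold higher and 1 lower with lactate in the lactate experiment. In whole cells 2 were higher and 0 lower, beside 15.2% and 27.6% of all genes. Plau (urokinase) had a log2 ratio of -2.90 in lactate over control cells and of 2.04 in whole lactate over whole control cells but of 0.32 with AZD3965 and 0.57 in scMeT-seq over whole lactate cells. Ctsd and Mmp12 had log2 ratios of -0.16 and -0.59 in the lactate experiment and of -0.41 and 0.45 with AZD3965. Mmp9 was at 46 counts with AZD3965 and 12 counts without it, a log2 ratio of 2.25.

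Tyrobp, the adaptor of TREM2, was less than 2-fold apart in every comparison, with log2 ratios of -0.04 in the lactate experiment, -0.12 with AZD3965, 0.22 in whole lactate over whole control cells and 0.54 in scMeT-seq over whole cells. Of 9 genes of TREM2 signalling and shedding, 1 was at least 2-fold higher and 0 lower with lactate in the lactate experiment. Of all genes 15.1% and 22.0% were. With AZD3965, 0 were higher and 2 lower, beside 24.9% and 15.6% of all genes. Among these 2 was the phospholipase gene Plcg2 at 8 counts, against 84 counts without AZD3965. In whole lactate cells 1 was higher and 2 lower, beside 15.2% and 27.6% of all genes. Of the apolipoproteins that TREM2 binds, Apoe had a log2 ratio of -0.65 in the lactate experiment and -0.53 with AZD3965. Clu had a log2 ratio of -3.05 in the lactate experiment, where 3 cells of each group had a count and the control cell CTL31 was highest at 4276 CPM, and with AZD3965 all of its 262 counts came from W14, the cell rich in fibroblast markers.

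Other galectins and tetraspanins were mostly less than 2-fold apart. Of the other galectin genes, 0 of 3 tested were at least 2-fold higher and 1 at least 2-fold lower with lactate in the lactate experiment. Of the other tetraspanins 0 and 1 of 10 were, beside 15.1% and 22.0% of all genes. Lgals3bp and Cd53, each among the 2 genes with the most counts in its list, had log2 ratios of 0.35 and 0.01. Of 14 fusion and osteoclast genes, 8 could be tested in the lactate experiment. Of these 0 were at least 2-fold higher and 1 at least 2-fold lower, beside the same shares. Mmp9 and Sirpa, those with the most counts, had log2 ratios of 0.54 and 0.68. In scMeT-seq over whole lactate cells 3 of 8 were higher and 0 lower, beside 21.7% and 20.6% of all genes. Cathepsin K (Ctsk) had 306 counts in the scMeT-seq cells and 28 counts in the whole cells there, a log2 ratio of 2.96. This ratio leaned on 1 cell. Lactic13 was at 402 CPM, while Lactic14, Lactic16 and Lactic17 were at 78.9, 0 and 13.3 CPM. The whole lactate cells were at or below 26.7 CPM. With AZD3965 Ctsk had 3 counts, against 37 counts without AZD3965.

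The MiT/TFE factors, which drive lysosomal genes such as Gpnmb, are 4. With AZD3965, 0 were at least 2-fold higher and 3 at least 2-fold lower, beside 24.9% and 15.6% of all genes. Tfe3 was at 15 counts, against 71 counts without AZD3965, and the other 2, Tfeb and Tfec, named after their values were seen, had 2 and 1 counts with AZD3965, against 27 and 23 counts without it. These counts came from few cells. Of 5 cells with and 5 without AZD3965, Tfe3 had a count in 3 and 4, Tfeb in 1 and 2 and Tfec in 1 and 3. Mitf had log2 ratios of 0.68 in the lactate experiment and -0.04 with AZD3965. Tfeb had one of 2.02 in the lactate experiment, where the lactate cell Lactic31 alone was at 426 CPM and the other 7 lactate cells were at or below 81.2 CPM, against at most 52.2 CPM in control cells.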

How the data were processed

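RNA of 35 single cells labelled peritoneal macrophages was analysed. The authors trimmed the reads with fastp 0.20.0, aligned them to mm10 with HISAT2 2.1.0, assigned them to genes with StringTie after 20 cycles of PCR, and deposited whole-number counts without normalization, beside gene symbols and cell names. CPM, log2 ratios and correlations were computed here from these counts with scipy 1.17.1, pandas 2.3.3 and numpy 2.4.6 under Python 3.11.15, and TMM factors with edgeR 4.0.16 (R 4.3.3). A group's counts are the sum of its cells. Genes with under 10 counts over both groups were left out, 3 counts stood in for a sum of 0, and exact conditional binomial 95% intervals cover counting error only. A gene was called at 2-fold. No test between groups of cells was made, because each group counts as 1 sample. The ratios and intervals were tested on simulated Poisson counts only. These hold no PCR copies and no spread between cells, so the simulation does not cover either. Alternatives were the mean and median of per-cell CPM, TMM, filters of 100 counts and of 1 count, each cell left out, cells within a letter, and leaving out the cells at 10% or more of fibroblast or mesothelial relative to macrophage markers. Detection at 5 counts and thinning to the smallest total of a table were also tried.

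The members and lists were chosen with earlier results of these data known. Beyond the 8 members, names were drawn from the 2 genes of each list with the most counts and those past 4-fold where the higher group had 50 CPM or more, the 5 highest and 3 lowest neighbours of Spp1, and the 2 highest of each other member. For Cd63, 1 of the 2 is not reported here. Promoters are from RefSeq (GRCm38.p6), where 6 of the 8 members were matched, and coordinates from GENCODE M21.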

Additional observations from a re-analysis of the deposited data

Results flagged for a closer look

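Within each group of 4 to 10 cells, the highest and the lowest cell were checked by Dixon's criterion. It sets the gap to the neighbouring cell against the range of the group. Its rate of about 1 in 20 by chance assumes normally distributed values. Per-cell CPM with skew and zeros do not meet this, so the number that passed is not read against that rate. Of 38 groups of values, 9 passed. In the lactate experiment these were Gpnmb in Lactic33 at 7342 CPM, Dcstamp in Lactic28 at 149 CPM and Dcstamp in the control cell CTL33 at 18.3 CPM, each the highest of 8 cells. In the AZD3965 experiment they were Gpnmb in F9 at 3496 CPM and Lgals1 in W14 at 6202 CPM among lactate+AZD cells, and Spp1 in T13 at 23272 CPM among lactate cells, each the highest of 5. Among the 4 scMeT-seq cells they were Gpnmb in Lactic13 at 19573 CPM and Dcstamp in Lactic17 at 245 CPM, the highest, and Cd9 in Lactic16 at 710 CPM, the lowest. The Lgals1 value belongs to a cell rich in fibroblast markers, and T13 had 22.8 CPM of them.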

How the results depend on the processing

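Ratios of single cells rest on few cells. Thinning each cell to the smallest total of its table left Trem2 with a count in 7 of the 8 control cells and changed no other such number. No paired analysis was possible because the cell numbers that lactate and control cells share name no common animal or culture and the ratios come from no test. For Spp1 in lactate over control cells, the median of per-cell CPM gave a log2 ratio of -2.97, and leaving out each cell in turn gave -3.12 to -2.32. In lactate+AZD over lactate cells, Spp1 was at -2.54 with the mean and -3.41 with the median of per-cell CPM, at -2.99 with TMM, at -2.54 without W14, at -3.49 among W cells and at 5.23 among F cells, and leaving out each cell gave -3.55 to -1.32. Leaving out each cell gave 4.35 to 5.63 in whole lactate over whole control cells and -2.82 to -0.22 in scMeT-seq over whole lactate cells, where the median gave -2.27.

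Members at least 2-fold higher fell to 0 with a filter of 100 counts in the lactate experiment. With AZD3965, members at least 2-fold higher were 0 by the median, without W14 and among T cells, and 5 among F cells, with 0 to 1 over the cells left out. Members at least 2-fold lower with AZD3965 were 2 by the median, with TMM and among W cells, and 0 among F cells, with 1 to 2 over the cells left out. In whole lactate over whole control cells, the median gave 5 higher and 0 lower, TMM gave 0 lower, and leaving out each cell gave 2 to 5 higher and 0 to 1 lower. In scMeT-seq over whole lactate cells, the median gave 1 lower, and leaving out each cell gave 0 to 3 higher and 0 to 2 lower. Over all members, 387 of 423 alternative ratios kept their sign. TMM moved the ratios of all genes by 0.08 in the lactate experiment, -0.16 with AZD3965, 0.19 in whole lactate over whole control cells and -0.01 in scMeT-seq over whole cells.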

Other observations

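In the technique comparison, large peritoneal macrophage markers summed to 2265 CPM in the scMeT-seq cell Lactic16 and 2453 CPM in the whole cell Lactic5, the 2 cells without Spp1, Lgals1, Dcstamp and Atp6v0d2. The other 5 cells treated with lactate had 606 to 1261 CPM of these markers, and the whole control cells CTL4 and CTL8 had 7449 and 2229 CPM. Spp1 was at 158 to 3104 CPM in those 5 cells. In the lactate experiment the control cell CTL35 had 3475 CPM of these markers and 1751 CPM of Spp1. The pattern was seen in the values first and was not tested.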
